A study of Solanum lycopersicum with 24 samples.

Results

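The comparison set tomato hairy roots carrying a CRISPR/Cas9 knockout of the transcription factor gene SlMYB92 against hairy roots carrying an empty vector, with 3 RNA-seq libraries on each side, or 6 of the 24 libraries of the series. The libraries were taken by the column names of the deposited table, and no measured value entered the choice. Hairy roots are cultures that grow out after Rhizobium rhizogenes has transferred root-inducing genes, and those used here were of the cultivar M82. The series asks how transcript levels in root tips change when SlMYB41, SlMYB92 or SlWRKY71 is lost or overexpressed. The groups shown beside the comparison, each with 3 libraries, were a CRISPR/Cas9 knockout of SlMYB41, 3 overexpression groups (SlMYB41, SlMYB92 and SlWRKY71, each fused to 3xFLAG behind the constitutive CaMV 35S promoter) and knockout lines 4 and 5 of SlWRKY71. All groups shared the cultivar, 9 days of growth in darkness at 25 °C and a medium with 3% sucrose, and 10 tips of 1 cm were pooled into each library. The sample titles give no line number for the SlMYB92 knockout or the control, so how many lines each group came from is not stated. An effect of the knockout and a difference between individual hairy root lines cannot be told apart. The sources used here do not describe the edit in the knockout line. Per the protocol there were 4 biological replicates of each line. Here 3 libraries per group were analysed, and the p-values measure the spread between these libraries.

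SlMYB92 and SlMYB41 are R2R3-MYB transcription factors, a large plant family that binds DNA through a pair of imperfect repeats. In Arabidopsis the genes of the same names activate suberin synthesis, and in tomato roots suberin is laid down in the exodermis, the outermost cortical layer. Suberin is a polyester of fatty acids, glycerol and phenolics, and its aliphatic monomers are made by fatty acid elongases, cytochrome P450 hydroxylases, glycerol-3-phosphate acyltransferases and a feruloyl transferase. A Cas9 cut repaired in a coding sequence usually leaves a short insertion or deletion, and the edited transcript can still be made and counted.

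Values are estimated counts per transcript, scaled by library size and written as CPM, with library sizes adjusted by TMM factors. Library totals in the series ran from 4852464 to 15372241 estimated counts. The SlMYB92 knockout libraries 2, 3 and 5 held 15372241, 6353635 and 7931473, so that library 2 was the deepest of the series. The control libraries 2, 3 and 5 held 7931912, 6078047 and 10085411. Libraries are numbered as in the table's columns, which differs from the numbering in the labels. Of 34688 transcripts, 18297 passed the filter on low counts and were tested in 1 edgeR quasi-likelihood fit over all 24 libraries. "Rose", "fell" and "changed" are used for a Benjamini-Hochberg adjusted p under 0.05 in that fit. CPM compares libraries for the same gene and does not rank genes against each other, since it is not per length. In whole root tips, fewer cells of a type and less RNA per cell cannot be told apart.

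The targeted gene was nearly silent in these root tips outside its own overexpression group. SlMYB92 (Solyc05g051550) stood at 0.199, 0 and 0 CPM in knockout libraries 2, 3 and 5, which is 3 counts in all. In the control libraries it stood at 0, 0 and 0.188 CPM, or 2 counts. The groups overlapped, and with so few counts in the control a fall was not detectable at this depth, so the transcript level does not check the knockout label. The log2 fold change was 0.26 (SE 1.27, adjusted p = 0.98 by edgeR), and it turned to -2.5 without knockout library 2, to -0.24 without control library 2 and to -0.11 without control library 3. Where SlMYB92 was overexpressed the same locus stood at 48.3, 87.6 and 60.6 CPM in libraries 2, 3 and 4. The other targeted genes did not pass the test either. SlMYB41 (Solyc02g079280) had 6 counts in the knockout and 1 in the control (log2 fold change 2.01, SE 1.45, adjusted p = 0.69 by edgeR). SlWRKY71 (Solyc02g071130) was at 1.39, 5.55 and 0.717 CPM against 1.99, 1.59 and 1.13 CPM in the control (log2 fold change 0.64, SE 0.75, adjusted p = 0.85 by edgeR), and turned to -0.53 without knockout library 3.

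None of the 7 tested loci of suberin, cutin and wax synthesis and of the phenylpropanoid entry step changed in the SlMYB92 knockout. By edgeR, 3 of them had an unadjusted p under 0.05, SlGPAT6 (0.021), SlCD1 (0.015) and PAL5 (0.016). Among all 18297 genes tested, 2188 were under that unadjusted threshold, and 7 loci are too few to compare with that share. None of the loci passed with DESeq2, where the lowest adjusted p was 0.17. SlASFT (Solyc03g097500), the feruloyl transferase that adds the phenolic ester to suberin, was at 6.17, 7.15 and 3.22 CPM in the knockout and at 2.58, 4.13 and 1.22 CPM in the control. The groups overlapped, and the log2 fold change was 1.12 (SE 0.72, adjusted p = 0.63 by edgeR). SlGPAT4 (Solyc01g094700), an acyltransferase of suberin and cutin monomers, was at 4.38, 3.07 and 2.15 CPM against 1.29, 2.22 and 2.26 CPM, with 1 knockout library inside the control range (log2 fold change 0.76, SE 0.53, adjusted p = 0.67 by edgeR). SlGPAT6 (Solyc09g014350), an acyltransferase of cutin, had 14 counts in the knockout, 11 of them in library 2, and none in the control (adjusted p = 0.27 by edgeR). The hydroxylase gene SlCYP86B1 (Solyc02g014730) had 13 counts against 5, and the elongase gene SlCER6 (Solyc02g085870) 10 against 2, and edgeR gave adjusted p-values of 0.87 and 0.57. The groups did not overlap for SlCER6. SlCYP86B1 turned from 0.83 to -0.09 on the log2 scale without knockout library 2. SlGPAT5 (Solyc04g011600) was below the filter. SlCD1 (Solyc11g006250), the cutin synthase, was at 0.398, 0.876 and 0.119 CPM against 0.703, 2.54 and 1.79 CPM (log2 fold change -1.86, SE 0.71, adjusted p = 0.22 by edgeR).

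PAL5 (Solyc09g007920) encodes phenylalanine ammonia-lyase, the entry enzyme of phenylpropanoid synthesis, and had the highest counts of these loci, which are not per length. It stood at 192, 279 and 544 CPM in the knockout and at 921, 577 and 733 CPM in the control. The groups did not overlap, and the log2 fold change of -1.14 (SE 0.44) did not pass (adjusted p = 0.23 by edgeR). In the SlMYB41 knockout PAL5 was at 216, 271 and 371 CPM, and the 15 libraries of the other groups lay between 114 and 802 CPM. The control was the group with the highest mean PAL5 level, and against the SlWRKY71 groups the knockout differed by 0.35 (SE 0.35, adjusted p = 0.61 by edgeR) on the log2 scale. The symbols of these loci were recalled from published work and were checked against no table, and reads of near-identical phenylalanine ammonia-lyase copies may be split between them.

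**Figure D1:**
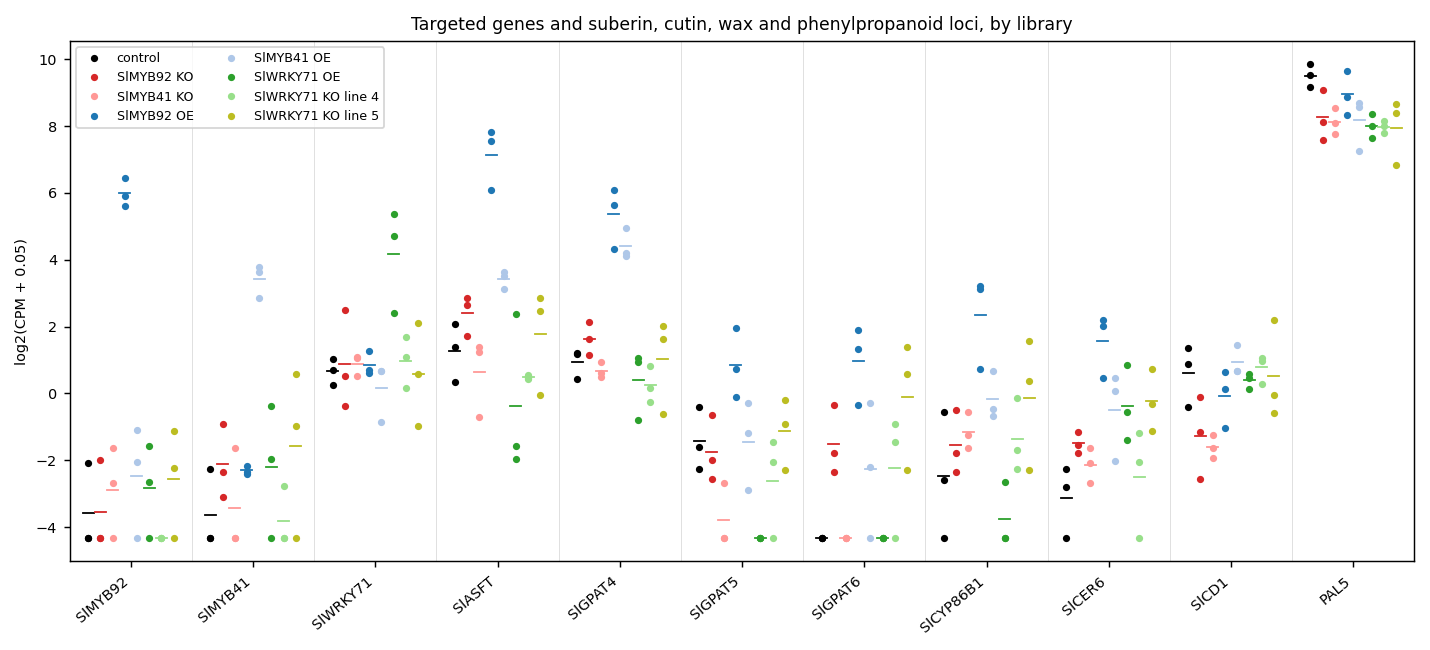
Level of each targeted gene and of the suberin, cutin, wax and phenylpropanoid loci in every library, as log2(CPM + 0.05), with 1 point per library, a bar at the group mean of the log2 values and groups in separate colours. The ranges of the SlMYB92 knockout and control points overlap except for SlGPAT6, SlCER6 and PAL5, which does not show equal levels. SlMYB92 itself is high only where it is overexpressed, and PAL5 has its highest group mean in the control.

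Across all genes, 205 rose and 320 fell in the SlMYB92 knockout, which is 1.12% and 1.75% of the genes tested, or 525 in all (2.87%). The genes that rose had a median CPM of 1.75 in the control and 14.1 in the knockout, and those that fell went from 12.5 to 2.65. The median log2 fold change was 2.51 for the genes that rose and -2.07 for those that fell, against 0.03 over all genes tested. The change reached 2 on the log2 scale in 121 of the 205 and 166 of the 320 genes, and 5 in 56 and 55. The libraries of knockout and control did not overlap in 205 of 205 and 317 of 320 genes, against a background of 8% of all genes with every knockout library higher and 8.85% with every one lower. The genes were called on these same libraries, so the lack of overlap follows largely from the choice. In 28 genes that rose the control had no count, and in 31 that fell the knockout had none. Leaving out control library 5 gave a total of 329, leaving out knockout library 2 gave 338 and leaving out knockout library 5 gave 347. It was 200 when tested against a log2 fold change of 1.

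The sources used here name none of the other genes, so the largest changes are given by identifier. Solyc05g053060 stood at 54.4, 75.5 and 99.3 CPM in knockout libraries 2, 3 and 5 and at 0, 0.159 and 0 CPM in the control. In the SlMYB41 knockout it stood at 43, 19.8 and 38.9 CPM, and no library of the other 5 groups exceeded 0.288 CPM. It was thus high in both MYB knockouts and near 0 elsewhere, and its ratio to the control was 1820 (counting interval 327 to 72000, adjusted p = 1.6e-09 by edgeR). Solyc08g008540 stood at 13.2, 24.7 and 12.3 CPM in the knockout and had no count in the control, so it was at least 132-fold higher (adjusted p = 1e-05 by edgeR). Only the control had no count in any library. The gene was at 26.5, 16.9 and 18.8 CPM in the SlMYB41 knockout and between 0.161 and 26.3 CPM in the other 5 groups. Levels were low in 2 of these, at 0.161, 0.819 and 5.17 CPM in SlWRKY71 knockout line 5 and 2.31, 1.32 and 4.37 CPM with SlWRKY71 overexpressed. The SlMYB92 knockout was also above the mean of the 3 SlWRKY71 groups, by 1.85 on the log2 scale (SE 0.4, adjusted p = 0.0072 by edgeR). A fold written as "at least" uses a floor of 3 counts over the group that had none, whereas a ratio with an interval is taken against the counts observed. The 95% counting intervals cover counting error only.

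Of the genes that fell furthest, Solyc01g058673 stood at 15.2, 11.7 and 5.83 CPM in the control and had no count in any SlMYB92 knockout library, at least 105-fold lower (adjusted p = 1.4e-06 by edgeR). Solyc00g090430, on no placed chromosome, stood at 12.9, 9.53 and 9.96 CPM in the control and also had no count in the knockout, at least 109-fold lower (adjusted p = 6.3e-08 by edgeR). Both genes had no count in the 3 SlMYB41 knockout libraries, and both were present in all 15 libraries of the other groups, from 3.39 CPM upward for Solyc01g058673 and from 3.71 CPM for Solyc00g090430. The neighbours Solyc09g005420 and Solyc09g005425 are 1 case of adjacent genes that rose together and were chosen after their values were seen. Solyc09g005420 stood at 143, 375 and 272 CPM in the SlMYB92 knockout against 0.586, 0.159 and 0.094 CPM in the control (log2 fold change 9.82, SE 0.91, adjusted p = 1.8e-07 by edgeR). Solyc09g005425 stood at 127, 339 and 212 CPM against 0.586, 0 and 0.282 CPM (log2 fold change 9.43, SE 0.73, adjusted p = 1e-08 by edgeR). Both were also high in the SlMYB41 knockout, at 368, 386 and 290 CPM and at 192, 350 and 162 CPM, and neither passed 7.58 CPM in any other library. Strand was not marked in these libraries, so overlapping transcripts of such neighbours would be counted without being separable.

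**Figure D2:**
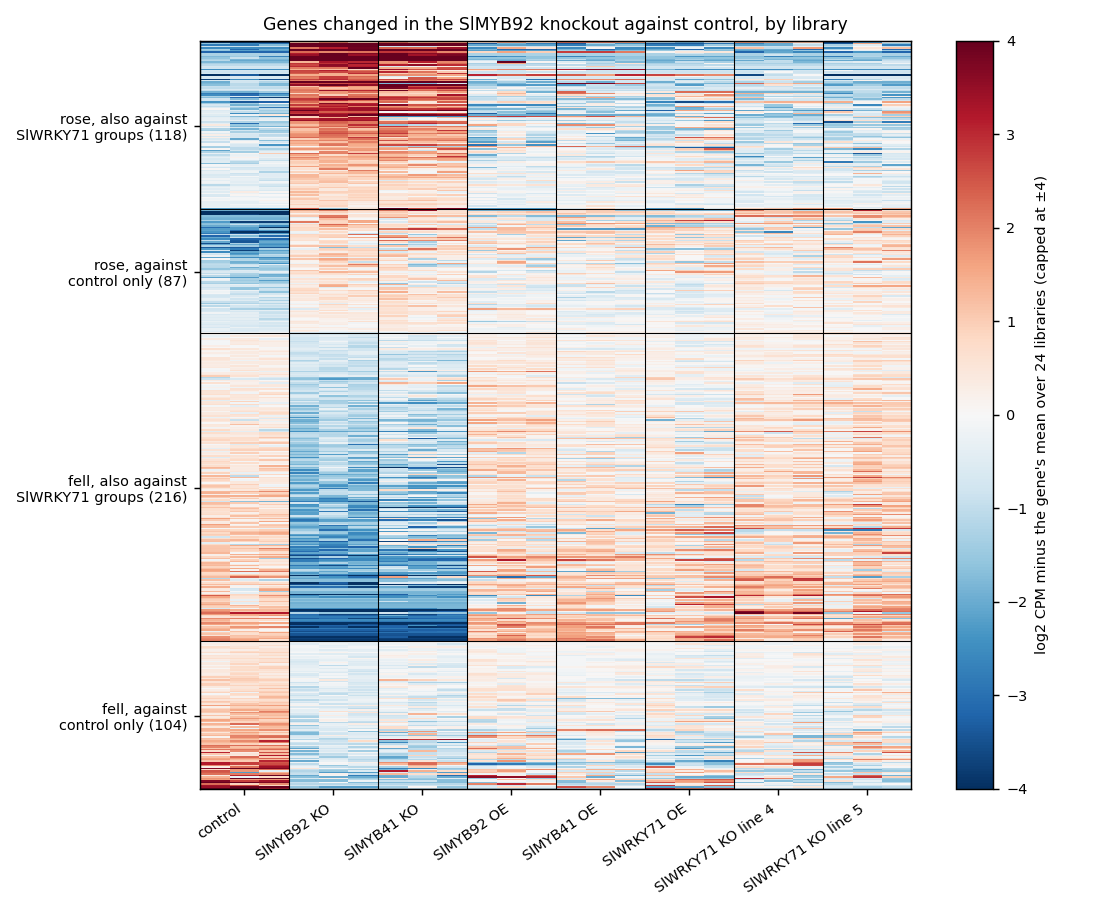
The 525 genes that changed in the SlMYB92 knockout (rows) in all 24 libraries (columns, grouped), coloured by log2 CPM minus the gene's mean over the libraries and capped at 4 on either side. Of the genes that rose and fell, 118 and 216 also changed the same way against the SlWRKY71 groups. Among these, the SlMYB41 knockout differed from the SlWRKY71 groups in the same direction in 91 and 155. Over all genes tested it was higher in 1.94% and lower in 2.24%. The 118 and 216 were chosen with the same SlWRKY71 libraries, so this agreement follows in part from the choice. In the 87 and 104 others the control differed from the SlWRKY71 groups in the matching direction in 54 and 65.

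The control enters every value above, so the SlMYB92 knockout was also set against the mean of the 3 SlWRKY71 groups, which hold 9 libraries, no control library and no group aimed at a MYB gene. Against that reference 486 genes were higher (2.66%) and 624 lower (3.41%). Of the 205 genes that rose against the control, 118 (57.6%) were also higher against the SlWRKY71 groups, 2 were lower and 85 did not pass. Of the 320 that fell, 216 (67.5%) were also lower, 0 were higher and 104 did not pass. The knockout libraries are shared by both comparisons, so these shares describe the choice of reference and are not a repeat of the experiment. Among the genes that did not pass, the control itself differed from the SlWRKY71 groups in the matching direction in 52 of 85 and 65 of 104, against a background of 1.86% of all genes with the control lower and 2.01% with it higher. The choice of genes used the control libraries, so these counts are a description. Against the SlWRKY71 groups the median log2 difference was 1.23 for the genes that rose and -1.54 for those that fell, compared with 0.01 over all genes. The total of 1110 (6.07%) was 631 without knockout library 2, 487 without knockout library 5 and 232 when tested against a log2 difference of 1, and the 334 genes shared with the control comparison were 213 and 216 without those libraries.

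The largest differences from the SlWRKY71 groups were again present in both MYB knockouts. Solyc08g065450 stood at 13.9, 25.5 and 27.5 CPM in the SlMYB92 knockout and had no count in the 9 SlWRKY71 libraries, at least 457-fold higher (adjusted p = 1e-07 by edgeR). It was at 22.7, 14.2 and 12.7 CPM in the SlMYB41 knockout and had 1 count in the control. Solyc05g150123 had 1 count in the SlMYB92 knockout and stood between 13.3 and 67.2 CPM in the SlWRKY71 libraries, a ratio of 0.00102 (counting interval 2.58e-05 to 0.00568, adjusted p = 9.1e-08 by edgeR). The control was on the side of the SlWRKY71 groups, at 29.4, 17.5 and 19.1 CPM, and the SlMYB41 knockout on the other, at 0.563, 0.105 and 0.27 CPM. Solyc11g021270 had no count in the SlMYB92 knockout, 2 in the SlMYB41 knockout and 1.52 to 15 CPM in the SlWRKY71 libraries, at least 76.8-fold lower (adjusted p = 7.9e-06 by edgeR).

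**Figure D3:**
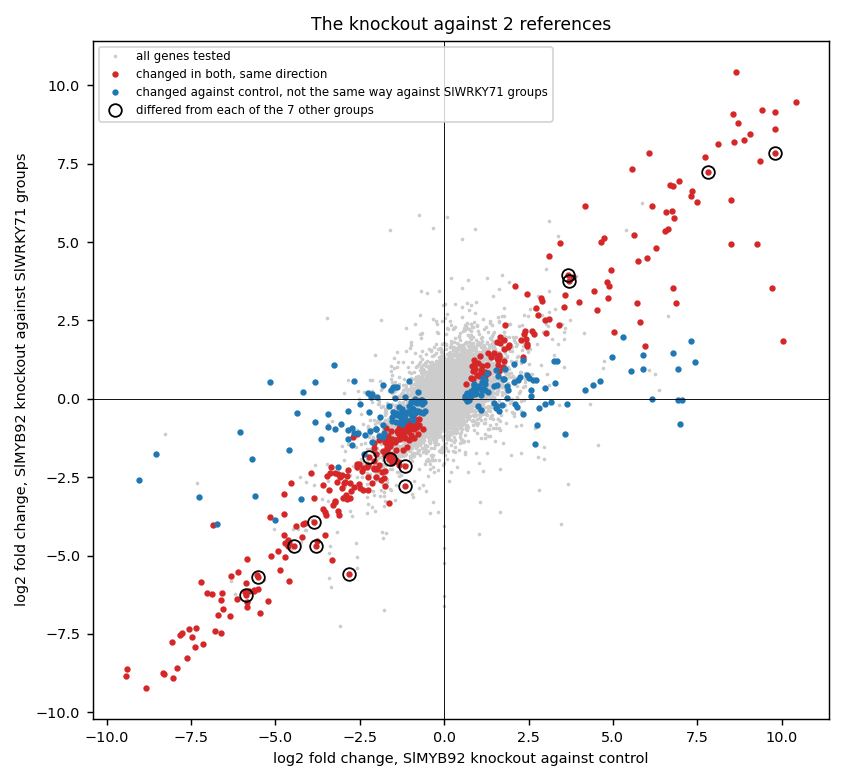
Log2 fold change of every tested gene in the SlMYB92 knockout against the control (x axis) and against the SlWRKY71 groups (y axis). Red points are the 334 genes that changed the same way in both, blue points are the other genes that changed against the control, and circles mark the 14 genes that differed from each of the 7 other groups. The axes share the knockout libraries, so the slope of the cloud is not a result, whereas the blue points near a y value of 0 are changes seen with the control as reference.

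The genes that changed in the SlMYB92 knockout had median levels in the SlMYB41 knockout that were nearer to those of the SlMYB92 knockout than to those of the control. Median CPM of the genes that rose was 1.75 in the control, 14.1 in the SlMYB92 knockout, 13.4 in the SlMYB41 knockout and 4.49 to 5.67 in the other groups. For the genes that fell it was 12.5, 2.65 and 3.51 CPM in the same order and 8.54 to 10.4 CPM in the other groups. A MYB knockout had the highest of the 8 group means in 162 of the 205 genes (79%, against 22.6% of all tested), and the lowest in 274 of the 320 (85.6%, against 22.4%). The control was at the other end, the lowest mean in 112 of the 205 (54.6%, against 13.8%) and the highest in 112 of the 320 (35%, against 10.3%). These shares follow in part from how the genes were chosen, since the choice used the SlMYB92 knockout and the control, while the SlMYB41 knockout libraries entered it only through the estimate of the spread that all groups share.

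Against the control, 479 genes rose (2.62%) and 456 fell (2.49%) in the SlMYB41 knockout, a total of 935 (5.11%) that was 482 without control library 5 and 585 without SlMYB41 knockout library 5. The genes that rose in the SlMYB92 knockout had a median log2 fold change of 2.18 there, and those that fell one of -1.63. Both knockouts are set against the same 3 control libraries, so these values are given side by side only. A comparison that shares no library with the SlMYB92 knockout and control was the SlMYB41 knockout against the SlWRKY71 groups, in which 355 genes were higher (1.94%) and 409 lower (2.24%). Of the 205 genes that rose in the SlMYB92 knockout, 103 were higher there, which is 50.2% of the 205 and 29% of the 355. Of the 320 that fell, 162 were lower there, 50.6% of the 320 and 39.6% of the 409. In the opposite direction there were 3 and 6 genes. The total of 764 (4.18%) was 477 and 439 without SlMYB41 knockout libraries 3 and 5.

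In the direct test of knockout against knockout, 28 genes were higher with SlMYB92 lost (0.153%) and 37 were higher with SlMYB41 lost (0.202%), 65 in all (0.355%). The libraries of the SlMYB92 knockout lay all above those of the SlMYB41 knockout in 9.12% of all genes and all below in 7.24%. At an unadjusted p under 0.05 there were 2227. Of the 205 genes that rose against the control, 7 were higher than in the SlMYB41 knockout, 1 was lower and 197 did not pass. Of the 320 that fell, 21 were lower, 2 were higher and 297 did not pass. The median log2 difference between the knockouts was 0.05 for the genes that rose and -0.25 for those that fell, against -0.03 over all genes, and a difference that did not pass is not shown to be absent. The total of 65 was 34 and 33 without SlMYB92 knockout libraries 2 and 5, 25 and 32 without SlMYB41 knockout libraries 3 and 5, 162 with DESeq2 and 18 when tested against a log2 difference of 1.

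The largest of these direct differences did not all lie in the SlMYB92 knockout. Solyc09g089570 stood at 5.78, 5.25 and 5.73 CPM in the SlMYB92 knockout and had 2 counts in the SlMYB41 knockout, a ratio of 62.8 (counting interval 17.1 to 523, adjusted p = 0.0018 by edgeR). It was also at 12.4, 11.5 and 5.41 CPM with SlMYB41 overexpressed and at 1.63 to 3.94 CPM in SlWRKY71 knockout line 4, while the other groups held at most 2 counts. The fitted log2 difference of 5.72 was 8.46 without SlMYB41 knockout library 5 and 5.05 without library 3. Solyc11g150123 had 9.01, 7.46 and 4.99 CPM in the SlMYB41 knockout and no count in any other library of the series, at least 70.8-fold lower in the SlMYB92 knockout (adjusted p = 0.017 by edgeR). That call was lost with DESeq2 (adjusted p = 0.56) and without any 1 of 5 of the 6 knockout libraries, SlMYB92 knockout library 3 being the exception. Solyc06g068690 stood at 20.8, 14.3 and 23.2 CPM in the SlMYB41 knockout, at 0.664, 0.73 and 1.31 CPM in the SlMYB92 knockout and at 4.33, 4.45 and 3.76 CPM in the control. It was below the control in the SlMYB92 knockout by -2.21 (SE 0.48, adjusted p = 0.0086 by edgeR) and above it in the SlMYB41 knockout by 2.22 (SE 0.42, adjusted p = 0.0024 by edgeR) on the log2 scale. The direct difference was -4.43 (SE 0.49, adjusted p = 1.8e-05 by edgeR), but the SlMYB92 knockout lay among the remaining groups, which ranged from 0 to 3.49 CPM.

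The SlMYB92 knockout stood apart from each of the 7 other groups in 14 genes, 4 higher (0.0219%) and 10 lower (0.0547%), counted as an adjusted p under 0.05 in the same direction in all 7 direct tests. In all 14 its 3 libraries did not overlap with any of the other 21, against a background of 34 genes (0.186%) higher and 53 genes (0.29%) lower by that measure alone. These 14 were singled out after the values were seen. They were called on the same libraries, so their lack of overlap follows largely from the choice. The number was 7 and 6 without SlMYB92 knockout libraries 2 and 5, 9 without SlMYB41 knockout library 5, 26 with DESeq2 and 5 when tested against a log2 difference of 1.

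Among the 4 higher genes, Solyc02g032850 stood at 737, 734 and 693 CPM in the SlMYB92 knockout, with 57.9, 54.1 and 57.7 CPM for the control and 111, 134 and 94.6 CPM for the SlMYB41 knockout. The remaining libraries lay between 13.6 and 106 CPM, so no library came near the knockout. The log2 fold change was 3.67 against the control (SE 0.3, adjusted p = 2.9e-08 by edgeR) and 2.67 against the SlMYB41 knockout (SE 0.29, adjusted p = 1.6e-05 by edgeR). Solyc03g121000 stood at 85.6, 111 and 95.3 CPM in the SlMYB92 knockout, 8.43, 5.87 and 8.08 CPM in the control and 5.44, 10.5 and 9.31 CPM in the SlMYB41 knockout. Every other library lay between 4.95 and 12.9 CPM, and the log2 fold change was 3.69 against the control (SE 0.26, adjusted p = 3.2e-09 by edgeR) and 3.51 against the SlMYB41 knockout (SE 0.26, adjusted p = 9.7e-08 by edgeR).

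The other 2 higher genes were near 0 outside the knockout. Solyc03g096160 stood at 9.76, 19.1 and 13.6 CPM in the SlMYB92 knockout, had no count in the control and 5 counts in the SlMYB41 knockout, all in library 5. It was at least 110-fold higher than in the control (adjusted p = 9.7e-05 by edgeR), a call that was lost with DESeq2 (adjusted p = 0.19). Solyc04g072360 stood at 3.05, 4.38 and 3.46 CPM and had no count in the control, at least 29.4-fold higher (adjusted p = 0.0015 by edgeR). In the other 18 libraries it did not exceed 0.582 CPM. Its difference from the SlMYB41 knockout, 4.6 on the log2 scale, did not pass in any fit with 1 knockout library left out (adjusted p from 0.11 to 0.29 by edgeR). That of Solyc03g096160 was 5.86, and it was 9.81 without SlMYB41 knockout library 5 and 5.19 without library 3.

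Of the 10 lower genes, 4 showed an intermediate level in the SlMYB41 knockout. Solyc06g005490 stood at 0.531, 2.77 and 0.358 CPM in the SlMYB92 knockout, 21.8, 21.5 and 25.1 CPM when SlMYB41 was lost and 48.6, 54.3 and 46.6 CPM in the control. The 3 groups did not overlap, and the log2 fold change was -5.52 against the control (SE 0.41, adjusted p = 5.5e-09 by edgeR) and -4.39 against the SlMYB41 knockout (SE 0.41, adjusted p = 1.9e-06 by edgeR). Solyc06g009170 had the same order, with 1.06, 1.17 and 0.836 CPM in the SlMYB92 knockout, 6.57, 11.5 and 9.85 CPM when SlMYB41 was lost and 18.5, 21.9 and 27.6 CPM in the control. Solyc10g084960 stood at 0.332, 0.438 and 0.717 CPM, 1.31, 4.1 and 2.97 CPM and 29.5, 27.3 and 27.9 CPM in that order. Solyc01g111640 stood at 6.9, 6.28 and 5.14 CPM, 17.3, 9.46 and 17.5 CPM and 107, 87.8 and 73.3 CPM. The log2 fold changes of these 3 against the control were -4.45, -5.86 and -3.86 in the SlMYB92 knockout and -1.27, -3.27 and -2.61 in the SlMYB41 knockout, all past the threshold (largest adjusted p = 0.0013 by edgeR). The direct difference between the knockouts was lost for Solyc01g111640 without any 1 knockout library except SlMYB41 library 3 (largest adjusted p = 0.22 by edgeR), and for Solyc10g084960 without SlMYB92 library 2 or 3 or SlMYB41 library 3 or 5 (largest adjusted p = 0.19 by edgeR). For Solyc06g005490 it was -5.59 without SlMYB92 library 3.

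In the other 6 lower genes the SlMYB41 knockout did not fall against the control. Solyc09g074380 stood at 7.77, 4.09 and 4.66 CPM in the SlMYB92 knockout, 17.9, 27.6 and 32.7 CPM in the control and 17.3, 33.8 and 23.9 CPM in the SlMYB41 knockout (log2 fold change against the control -2.21, SE 0.36, adjusted p = 5e-04 by edgeR). Solyc06g066590 stood at 8.1, 5.11 and 6.33 CPM in the SlMYB92 knockout and 14.1, 16.5 and 14 CPM in the control. The SlMYB41 knockout was above the control at 51.2, 21.6 and 41.4 CPM (log2 fold change 1.35, SE 0.26, adjusted p = 0.0024 by edgeR). The control was itself low, since means were 40, 45.6 and 50.9 CPM in the SlWRKY71 groups, 30.2 CPM with SlMYB92 overexpressed and 18.2 CPM with SlMYB41 overexpressed. Against the SlWRKY71 groups the SlMYB41 knockout differed by -0.25 on the log2 scale (SE 0.21, adjusted p = 0.62 by edgeR). The remaining 4 were Solyc01g068080, Solyc06g011400, Solyc10g073357 and Solyc12g019150, with log2 fold changes against the control of -1.16, -1.61, -2.83 and -3.78. The last 2 had 3 and 2 counts in the knockout, and their ratios to the control were 0.126 (counting interval 0.024 to 0.425) and 0.0601 (0.00694 to 0.238). For Solyc10g073357 the control mean of 0.798 CPM was low as well, against 1.93 CPM in the SlMYB41 knockout and 3.58 to 6.55 CPM in the other groups. The control mean of Solyc01g068080, 13 CPM, was also below those of the other groups, at 21.7 to 30.4 CPM. The call against the control was lost for Solyc01g068080 without any 1 library except control library 2, and for Solyc12g019150 without any 1 knockout library or without control library 2. It was lost for Solyc06g066590 without knockout library 3 or 5 or control library 3, for Solyc10g073357 without knockout library 2 or 5 or control library 2, and for Solyc06g011400 without knockout library 2 or 5.

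**Figure D4:**
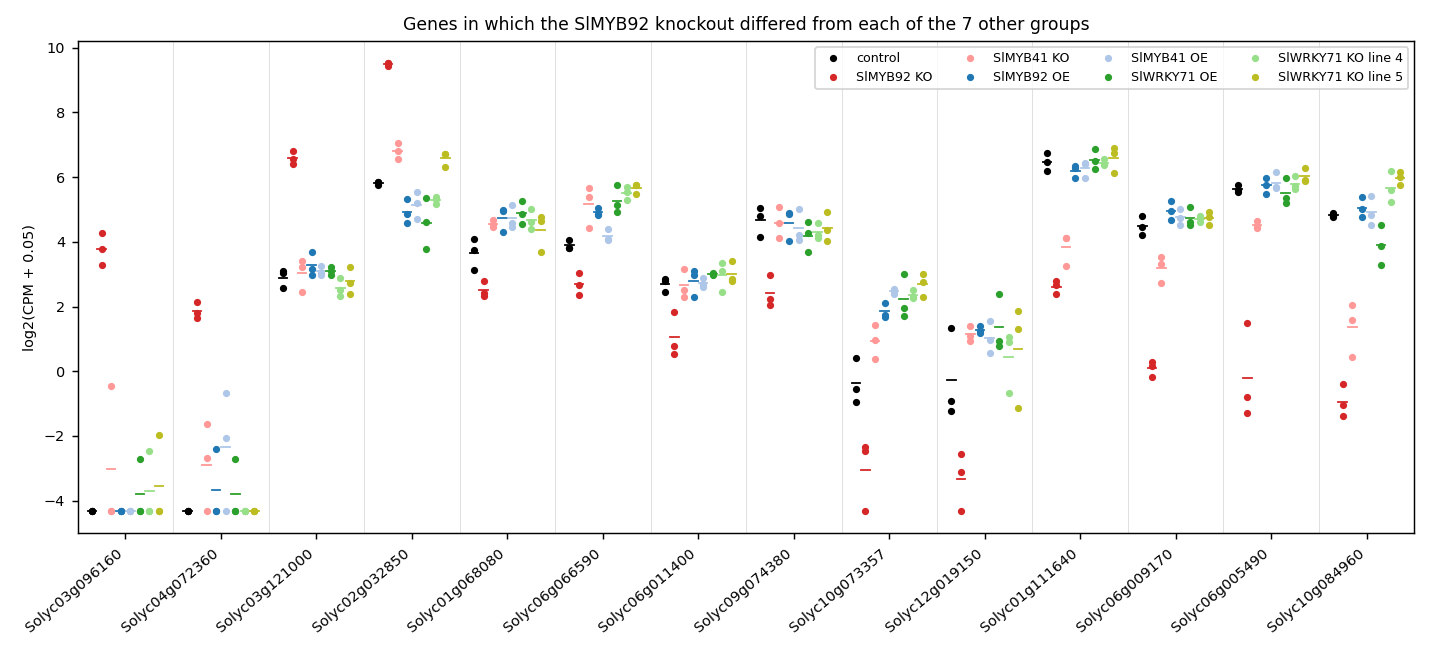
The 14 genes in which the SlMYB92 knockout differed from each of the 7 other groups, as log2(CPM + 0.05) in each library, with a bar at the group mean of the log2 values. In each gene the 3 red knockout points lie clear of the other 21, above them in the 4 genes on the left and below them in the 10 on the right. The SlMYB41 knockout in pink lies between the SlMYB92 knockout and the remaining groups in the last 4 genes.

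The identifiers carry the chromosome and the order of the loci, which shows where the changed genes lie. The share of tested genes that rose ran from 0.762% on chromosome 2 to 1.71% on chromosome 5. The share that fell ran from 1.06% on chromosome 8 to 3.8% on chromosome 12, where 46 of 1209 genes fell, followed by 3.02% on chromosome 5 and 2.29% on chromosome 11. Genes next to each other in the order of tested genes rose together in 17 cases among the 205 and fell together in 19 among the 320. No expected number was worked out, so these counts alone do not show that changed genes cluster. The densest groups outside chromosome 12 were 8 of 50 neighbours that fell between Solyc04g071490 and Solyc04g072120 and 7 of 50 that rose between Solyc09g005330 and Solyc09g007140, a run that includes Solyc09g005420 and Solyc09g005425. All 8 of the former were also lower against the SlWRKY71 groups, and 5 of the 7 latter were also higher. On chromosome 5, 6 of 50 neighbours fell between Solyc05g014760 and Solyc05g016340, all 6 also against the SlWRKY71 groups. On chromosome 6, 5 of 50 fell between Solyc06g009170 and Solyc06g011400, all 5 also against the SlWRKY71 groups, and both end genes are among the 14 that stood apart. Each stretch was picked as the densest of its chromosome. Of all genes that fell, 67.5% were also lower against the SlWRKY71 groups, and of all that rose, 57.6% were also higher.

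On chromosome 12 the control stood apart from every other group. Between Solyc12g062860 and Solyc12g098250, 22 of 239 tested genes fell (9.21%) and 2 rose, against 298 of 18058 (1.65%) that fell elsewhere. The segment was chosen after the values against the control were seen. Its share of fallen genes and its median against the control therefore follow in part from the choice. The median log2 fold change over these 239 genes was -0.42 in the SlMYB92 knockout, -0.54 in the SlMYB41 knockout and between -0.54 and -0.46 in the other 5 groups, each against the same control libraries. Against the SlWRKY71 groups the SlMYB92 knockout had a median of 0.02 there, and 4 of the 22 genes were also lower. The segment holds 6.88% of the genes that fell. Without it 211 genes rose and 293 fell, a total of 504. Its lowest stretch of 50 neighbours, from Solyc12g089110 to Solyc12g095830, had a median of -0.61, and the lowest stretch on any other chromosome had -0.21. The cause of the higher level in the control was not tested.

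**Figure D5:**
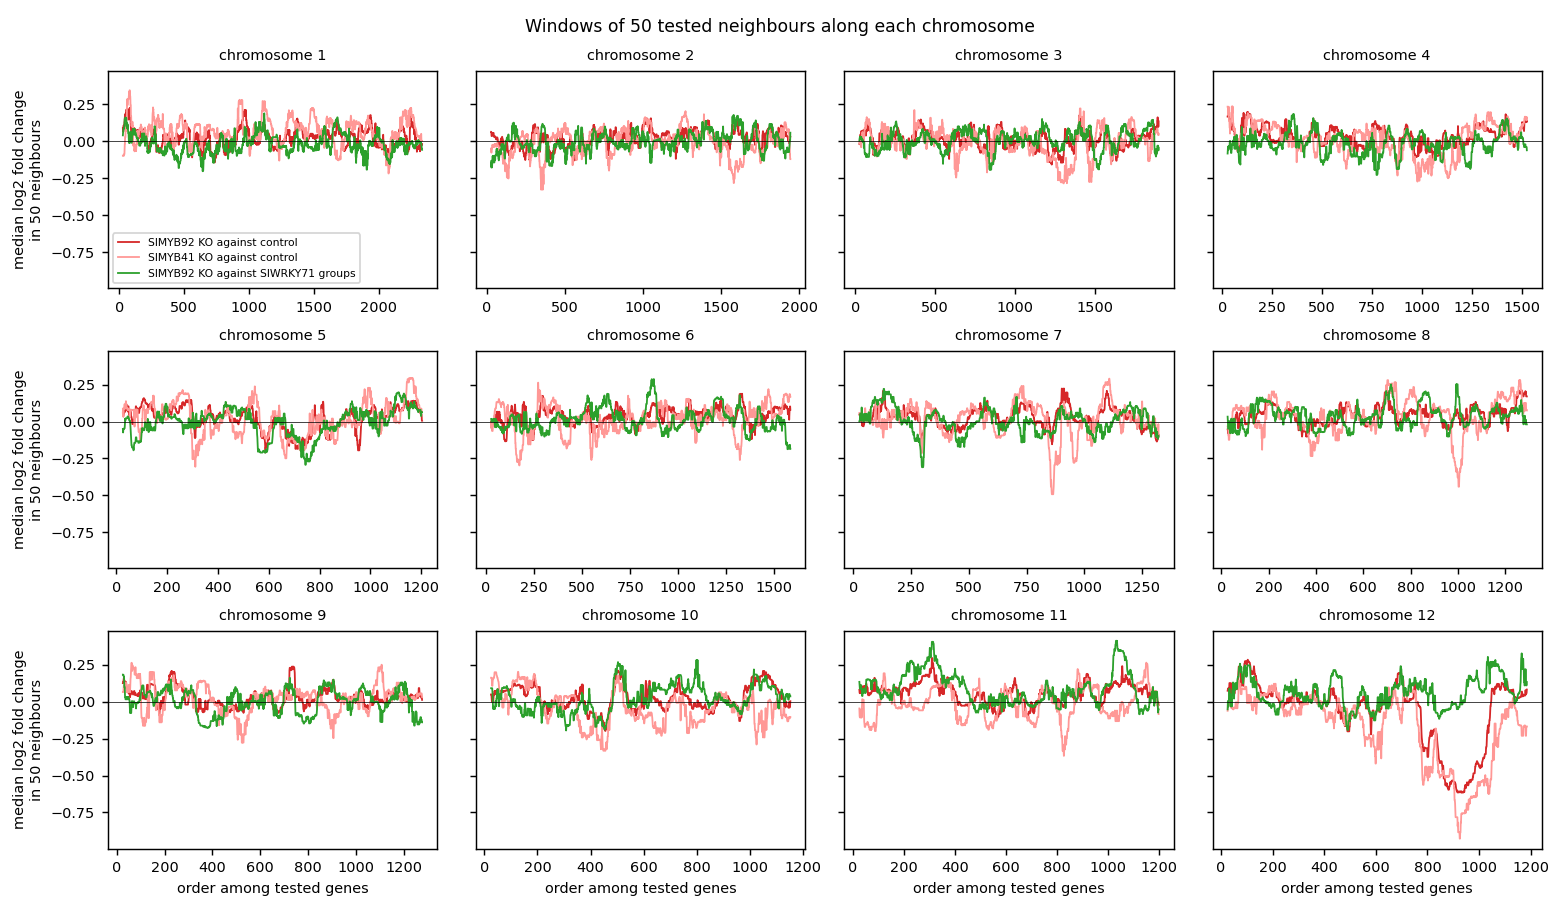
Median log2 fold change over 50 neighbouring tested genes along each chromosome, with the order among tested genes on the x axis, for the SlMYB92 knockout against the control (red), the SlMYB41 knockout against the control (pink) and the SlMYB92 knockout against the SlWRKY71 groups (green). On chromosome 12 the curves against the control dip together, the red one to -0.61, while the green one, which uses no control library, does not.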

How the data were processed

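RNA-seq measured poly(A) RNA in the 3 SlMYB92 knockout and 3 control libraries and in the 18 libraries shown beside them, sequenced without strand as paired reads of 75 bp, per the labels' protocols. The values are the estimated counts deposited by the authors, 1 row per transcript. The submitters' processing notes list Trim Galore 0.6.6 and kallisto 0.46.2. Which annotation was used is not given here. kallisto shares reads between near-identical transcripts by estimation, so values of close paralogs are uncertain. Of the values, 6.18% were not whole at a tolerance of 1e-09, and all were rounded. Columns were assigned to groups by name.

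Genes were filtered with filterByExpr, which left 18297 of 34688, and scaled by TMM (factors 0.909 to 1.12). All 24 libraries entered 1 quasi-likelihood fit with a mean per group in edgeR 4.0.16 (limma 3.58.1, R 4.3.3), so that every group contributes to the estimate of the spread. Common dispersion came to 0.0789, or 28.1% variation between replicates. The p-values were adjusted by Benjamini-Hochberg over all genes tested, separately in each of 5 comparisons and in the direct tests against each of the 7 other groups. The 3 SlWRKY71 groups had equal weight in their mean. A standard error is the size of the log2 change over the root of the F value. A fold against a group with no count is a bound against 3 counts over the group. The scripts were tested on simulated counts. Alternatives were DESeq2 1.42.0, RLE size factors, other filters, a test against a log2 fold change of 1, fits of the compared groups alone, a replicate block and leaving out each library.

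Genes were named by rule: the targets, the listed loci, and, per comparison, up to 2 rising and 2 falling identifiers with the largest log2 fold change among changed genes without overlap in CPM and with a mean of at least 5 CPM in the higher group. The members and lists were chosen with earlier results of these data known. Of the identifiers, 0 of 34688 were found in the reference table, so symbols are recalled from published work and further recalled lists, markers of root cell types among them, were left out. The labelled tissue was therefore not checked against markers. Of the suberin, cutin and wax list, 1 locus is not reported here.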

Additional observations from a re-analysis of the deposited data

Results flagged for a closer look

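The change against the control differed between the SlMYB92 and SlMYB41 knockouts in 65 genes by a direct test of the 2 knockouts (edgeR quasi-likelihood, adjusted over all genes tested), in which the control cancels. Among the genes named above, the log2 difference, SlMYB92 knockout minus SlMYB41 knockout, was 5.86 for Solyc03g096160, 5.72 for Solyc09g089570, 4.6 for Solyc04g072360, 3.51 for Solyc03g121000 and 2.67 for Solyc02g032850. It was -8.81 for Solyc11g150123, a fitted value against a group with no count, and -4.43 for Solyc06g068690, whose changes against the control had opposite signs. For the 10 genes in which the SlMYB92 knockout was lower than every other group, it was -1.25 for Solyc01g111640, -1.62 for Solyc06g011400, -2.02 for Solyc01g068080, -2.16 for Solyc09g074380, -2.52 for Solyc06g066590, -2.59 for Solyc10g084960, -3.18 for Solyc06g009170, -4.06 for Solyc10g073357, -4.39 for Solyc06g005490 and -4.75 for Solyc12g019150. With 1 knockout library left out, fits added after seeing the data, the difference ranged from 5.19 to 9.81 for Solyc03g096160, from 5.05 to 8.46 for Solyc09g089570, from 4.22 to 5.49 for Solyc04g072360 and from -5.59 to -3.89 for Solyc06g005490. The call was lost in at least 1 such fit for Solyc04g072360, Solyc11g150123, Solyc01g111640, Solyc06g011400, Solyc10g084960 and Solyc12g019150 (largest adjusted p 0.29, 0.099, 0.22, 0.31, 0.19 and 0.15 by edgeR). In each of these 17 genes the 3 libraries of the SlMYB92 knockout lay all above or all below the 3 of the SlMYB41 knockout, against a background of 9.12% of all genes all above and 7.24% all below. The genes were picked by that lack of overlap or by tests on the same libraries, so it follows largely from the choice and is no support. Groups of 3 libraries were not tested for single libraries far from the rest.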

How the results depend on the processing

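With 3 libraries a side and 28.1% variation between replicates, a test that was not passed does not show equal levels, and low genes such as SlMYB92 cannot show a fall. Against the control the total was 525, and it was 733 with DESeq2, 529 with RLE size factors, 377 with only the groups compared and 200 with glmTreat against a log2 fold change of 1. With the SlWRKY71 groups as reference it was 1110. Further glmTreat totals were 18 against the SlMYB41 knockout, 232 against the SlWRKY71 groups, 232 for the SlMYB41 knockout against the control, 224 for it against the SlWRKY71 groups, 143 and 117 for the genes shared with those comparisons and 5 for the genes apart from every group. DESeq2 gave 162, 1453 and 26 for the direct comparison of the knockouts, the SlMYB41 knockout against the control and the genes apart, and no filter on low counts gave 99 for the first. With only the groups compared, the knockouts differed in 31 genes, and the comparisons of the SlMYB92 and SlMYB41 knockouts with the SlWRKY71 groups gave 622 and 508.

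Leaving out 1 library at a time gave 329 to 471 genes against the control, 25 to 57 against the SlMYB41 knockout and 487 to 1189 against the SlWRKY71 groups. For the SlMYB41 knockout these fits gave 482 to 876 against the control and 439 to 895 against the SlWRKY71 groups. Genes shared with the SlWRKY71 reference ranged from 213 to 291, those shared with the SlMYB41 knockout in that reference from 194 to 234, and genes apart from every group from 6 to 14. The lowest stretch of 50 neighbours ranged from -0.71 to -0.61 and was -0.4 once the chromosome 12 segment, chosen after seeing the data, was left out. That -0.4 was still below the -0.21 of the lowest stretch on any other chromosome in the main fit, so the segment's bounds may not hold all of the low stretch. SlMYB92 itself ranged from -2.5 to 2.79, with -0.24 and -0.11 without control libraries 2 and 3, SlWRKY71 from -0.53 to 1.08 and SlCYP86B1 from -0.09 to 2.53, and the cause was not tested.

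The numbers in the column names gave no clear pairing of the libraries. Same-numbered SlMYB92 knockout and control libraries had correlations of -0.25, -0.1 and 0.09, and differently numbered ones ran from -0.16 to 0.26. Same-numbered libraries of the SlMYB92 and SlMYB41 knockouts had -0.22, -0.1 and 0.25. With 3 libraries a side, such values cannot decide whether libraries were paired. A replicate block on the column numbers gave 523 genes against the control, 67 against the SlMYB41 knockout and 848 against the SlWRKY71 groups, and 912 and 708 for the SlMYB41 knockout. The shared genes were 312 and 258 and the genes apart 12, and SlMYB92 was at 0.34. Of 535 values of named genes other than SlMYB92 under these alternatives, 498 kept their direction and side of the threshold, 35 lost the call and 2 changed sign.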

Other observations

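Genes present in one set of libraries and absent from the other were counted over all 34688 transcripts, with no test. In 9 transcripts the 6 MYB knockout libraries had no count while each of the other 18 libraries had at least 10, and in 1 transcript the 6 MYB knockout libraries had at least 10 counts each and the other 18 none. For the 3 SlMYB92 knockout libraries alone against the other 21, both counts were 0.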
